A study of Canis lupus familiaris with 4 samples.

Results

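CAV1, OXTR, SNAI2, CD44 and S100A4 are 5 genes that are often read in mammary tumours as signs of the basal, myoepithelial or mesenchymal character of tumour cells. They were chosen by name, as the non-control probes on the array that carry the dog RefSeq mRNA accession of each gene. Each gene had 1 probe and 1 spot, so no gene had a second probe to compare it with. They are 5 of 924 genes that could be named through such an accession and were tested, on an array of 43603 probes of which 3.78% could be named. The probes are A_11_P0000020008 (CAV1, NM_001003296), A_11_P0000028739 (OXTR, NM_001198659), A_11_P0000030635 (SNAI2, NM_001097981), A_11_P0000021548 (CD44, NM_001197022) and A_11_P0000019879 (S100A4, NM_001003161).

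RNA labelled as canine mammary tumours of grade 3, called the most malignant, had been compared with RNA labelled as grade 1, called less malignant, on 4 two-colour arrays of 1 slide. The dyes were swapped between arrays, with Cy5 on grade 3 RNA in 2 of them and on grade 1 RNA in the other 2. The labels give no age, breed or treatment for either grade. Their protocols describe cancer cells kept with sorted monocytes for at least 72 h and then separated from them by flow cytometry, while the titles speak of tumours, and the labels do not settle which was hybridised. The arrays are called biological replicates, but which of them share an RNA extract is not stated, and the p-values below measure only the spread between arrays, which may be technical. The milk protein genes CSN2 and LALBA, which mark mammary secretory epithelium, were well above background in both grades.

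The mammary duct has an inner layer of luminal cells and an outer, basal layer of contractile myoepithelial cells. The oxytocin receptor on myoepithelial cells starts the contraction that ejects milk, and caveolin-1, the main protein of the membrane pits called caveolae, is abundant in that layer and also in endothelial cells, fibroblasts and adipocytes. SNAI2, or Slug, is a zinc finger repressor of epithelial genes that is present in basal cells and takes part in epithelial-mesenchymal transition (EMT), the loss of cell junctions and gain of motility. CD44 is a membrane receptor for hyaluronan, and S100A4 a small calcium-binding protein that binds non-muscle myosin. Both are used as mesenchymal markers, and leukocytes express both as well.

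The 5 genes did not move one way. Relative to the other probes of the same array, SNAI2 (1.28-fold), OXTR (1.22-fold) and CAV1 (1.19-fold) were higher in grade 3, and S100A4 (1.47-fold) and CD44 (1.21-fold) were lower, but scaling the arrays to their spike-in controls put CD44 and S100A4 above 0 as well. All 5 passed the test, limma with Benjamini-Hochberg adjustment over 35376 tested probes, at an adjusted p under 0.05. So did 61.7% of all tested probes, 31.1% as higher and 30.5% as lower, and the count of 5 in 5 genes has to be read against that share. With local backgrounds as measured only 1 of the 5 genes, S100A4, was called, against 19.1% of all tested probes. Of the called probes 50.5% were higher in grade 3, against 63.9% with median centring in place of loess, 97.2% with spike-in scaling and 34.5% with local backgrounds as measured, each of which bears on a result below. The sizes were modest: 60.1% of tested probes had a smaller log2 fold change than CAV1, 64.6% than CD44, 65.4% than OXTR, 73.5% than SNAI2 and 87.5% than S100A4, regardless of sign. Where RNA comes from a mixture of cells, fewer cells of a type and less RNA per cell cannot be told apart.

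**Figure D1:**
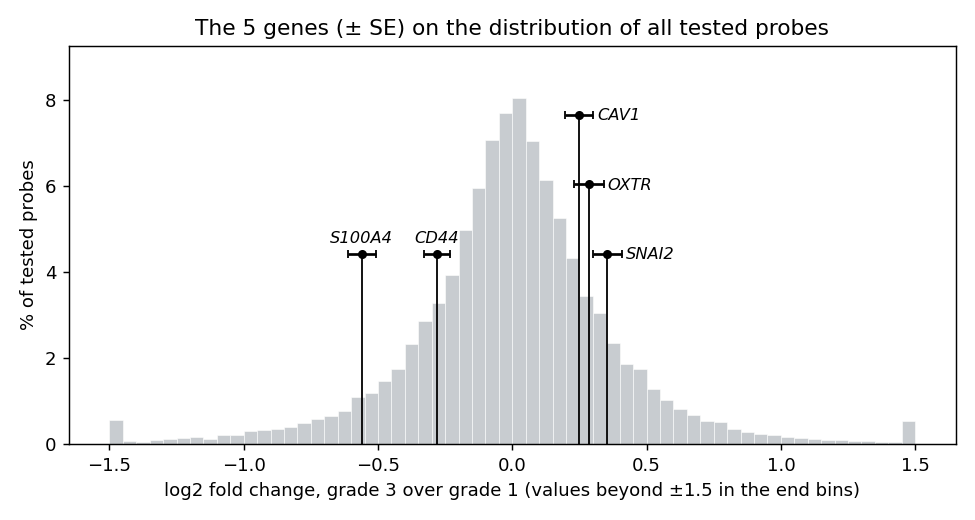
Percentage of the tested probes (y axis) in bins of the log2 fold change, grade 3 over grade 1 (x axis), with the 5 genes marked by lines and points with their SE over 4 arrays. The genes lie on the flanks of the distribution, S100A4 farthest out at -0.56, and CD44 and S100A4 lie above 0 when arrays are scaled to the spike-in controls.

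OXTR had the smallest dye effect of the 5. Its normalised log2 level, an intensity on a log2 scale, was 9.72, 9.60, 9.84 and 9.53 in grade 3 and 9.43, 9.29, 9.43 and 9.39 in grade 1, in the order of replicates 1 and 2 with grade 3 in Cy5 and replicates 1 and 2 with grade 1 in Cy5. The grades did not overlap, since the lowest grade 3 level stood above the highest of grade 1. That held in one direction or the other for 4 of the 5 genes and for 44.3% of tested probes. The log2 ratios on the arrays, in the same order, were 0.29, 0.31, 0.40 and 0.14, all above 0. The fitted log2 fold change was 0.29 ± 0.055 (SE, n = 4 arrays, 95% interval 0.16 to 0.41, limma adjusted p = 0.00133). The mean ratio was 0.30 with grade 3 in Cy5 and 0.27 with grade 1 in Cy5, and the fitted dye effect, the part of a ratio that follows Cy5 whatever the grade, was 0.013 ± 0.055 (limma adjusted p = 0.889). The pair of arrays with grade 1 in Cy5 differed from each other by 0.26, more than the orientations did. Before normalisation its signal was 20.4 to 32.6 times the local background in grade 3 and 13.9 to 16.6 times in grade 1. The call ended when local backgrounds were used as measured (log2 fold change 0.18, limma adjusted p = 0.127).

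CAV1 had the largest dye effect of the 5 relative to its grade effect, while that of S100A4 was larger in itself. Its log2 level was 14.242, 14.131, 14.444 and 14.527 in grade 3 and 14.101, 14.199, 13.996 and 14.057 in grade 1, in the same array order. Here the grades overlapped, since grade 3 on replicate 2 with grade 3 in Cy5 lay below grade 1 on the same array. The log2 ratios were 0.14 and -0.068 with grade 3 in Cy5 and 0.45 and 0.47 with grade 1 in Cy5, so 3 of 4 arrays were above 0 and the orientations stood apart. The fitted log2 fold change was 0.25 ± 0.052 (SE, n = 4, 95% interval 0.13 to 0.36, limma adjusted p = 0.00224), beside a dye effect of -0.21 ± 0.052 (limma adjusted p = 0.0235) that was 0.852 times as large. Of all tested probes, 87.3% had a smaller dye effect, and 19.8% had one that passed the same threshold, as 2 of the 5 genes did. The mean ratio was 0.037 with grade 3 in Cy5 and 0.46 with grade 1 in Cy5. Without a dye term in the fit the call was lost (limma adjusted p = 0.0868), as it was with local backgrounds as measured (adjusted p = 0.0507).

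SNAI2 was higher in grade 3 on all 4 arrays, by unequal amounts. Its log2 level was 12.21, 11.98, 12.33 and 12.25 in grade 3 and 11.94, 11.88, 11.75 and 11.79 in grade 1. The grades did not overlap, though the gap was narrow on replicate 2 with grade 3 in Cy5. The log2 ratios were 0.28 and 0.098 with grade 3 in Cy5 and 0.59 and 0.46 with grade 1 in Cy5. The fitted log2 fold change was 0.35 ± 0.052 (SE, n = 4, 95% interval 0.24 to 0.47, limma adjusted p = 0.000249), with a dye effect of -0.17 ± 0.052 (limma adjusted p = 0.0512). With local backgrounds as measured the value was 0.25 and not called (limma adjusted p = 0.146).

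CD44 was lower in grade 3 on all 4 arrays after loess normalisation, and above 0 after spike-in scaling. Its log2 level was 9.67, 9.60, 9.73 and 9.89 in grade 3 and 9.99, 10.07, 9.93 and 10.02 in grade 1. Every grade 1 level stood above every grade 3 level. The log2 ratios were -0.32 and -0.47 with grade 3 in Cy5 and -0.20 and -0.13 with grade 1 in Cy5. The fitted log2 fold change was -0.28 ± 0.050 (SE, n = 4, 95% interval -0.39 to -0.17, limma adjusted p = 0.000812), with a dye effect of -0.11 ± 0.050 (limma adjusted p = 0.133). This call held in 11 of 14 alternative settings, the fewest of the 5 genes. It was lost with median centring in place of loess (log2 fold change -0.084, limma adjusted p = 0.198) and with local backgrounds as measured (-0.20, adjusted p = 0.0585). With spike-in scaling CD44 was called higher (0.39 ± 0.10, limma adjusted p = 0.00016). All 5 genes had that SE there, since the fit gave them 1 common variance in place of separate ones. The spread of the spike-in mean between arrays, which every probe shares, enters that variance. The p-value treats this shared spread as separate for each probe, so it overstates the certainty.

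S100A4 had the largest difference of the 5. Its log2 level was 15.81, 15.94, 15.46 and 15.69 in grade 3 and 16.23, 16.16, 16.29 and 16.47 in grade 1. The groups did not overlap, and the grade 1 levels were 16.29 ± 0.13 (SD, n = 4) against 15.73 ± 0.20 in grade 3. The log2 ratios were -0.42 and -0.22 with grade 3 in Cy5 and -0.83 and -0.78 with grade 1 in Cy5. The sign was the same on all 4 arrays, as it was for 57.0% of tested probes. The fitted log2 fold change was -0.56 ± 0.052 (SE, n = 4, 95% interval -0.68 to -0.44, limma adjusted p = 1.015e-05). The dye effect was 0.24 ± 0.052 (limma adjusted p = 0.015), opposite in sign to that of CAV1, SNAI2 and CD44. S100A4 kept its call with local backgrounds as measured, the setting that ended the other 4 and left 19.1% of tested probes called. With spike-in scaling it had a log2 fold change of 0.11 ± 0.10 (limma adjusted p = 0.3), so its direction was not kept there.

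**Figure D2:**
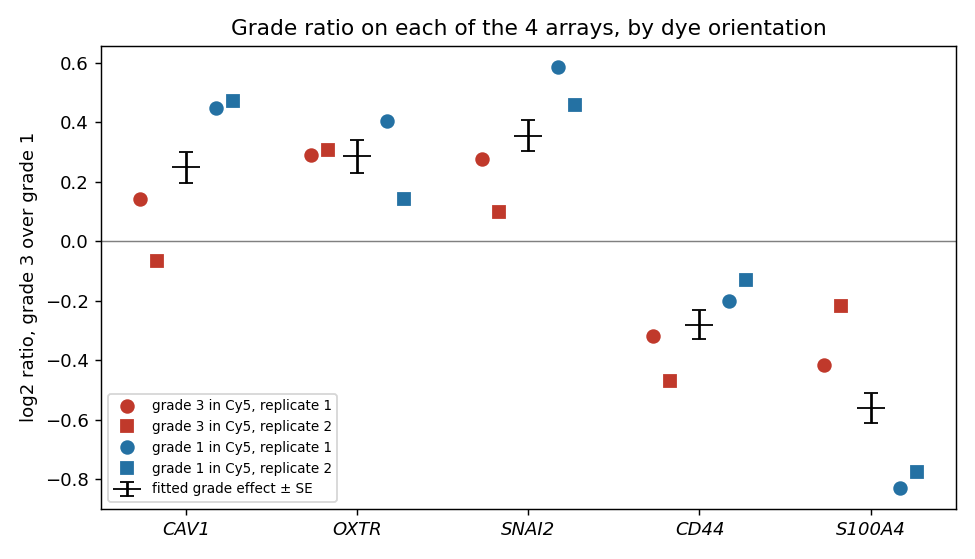
Log2 ratio of grade 3 over grade 1 (y axis) for each gene (x axis) on each of the 4 arrays, coloured by dye orientation, with the fitted grade effect ± SE in black. OXTR has the orientations mixed, CAV1 has one array below 0 at -0.068, and the orientations of S100A4 stand apart, at -0.42 and -0.22 against -0.83 and -0.78.

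**Figure D3:**
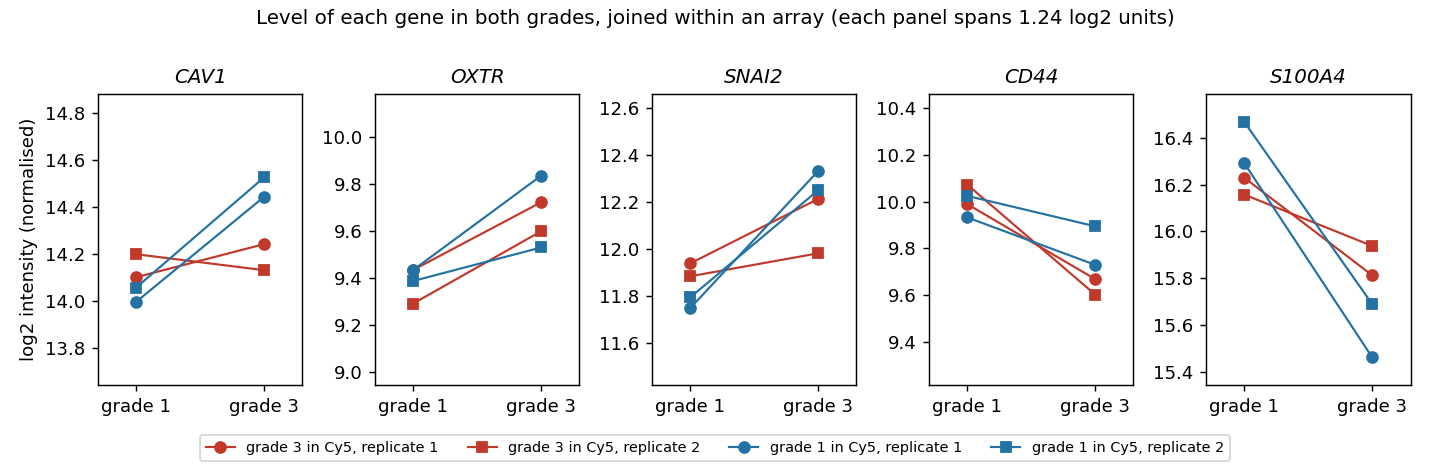
Normalised log2 intensity (y axis) of each gene in grade 1 and grade 3 (x axis), with lines joining both channels of 1 array. Lines rise for OXTR and SNAI2 on all 4 arrays and for CAV1 on 3, and fall for CD44 and S100A4 on all 4, before any spike-in scaling.

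The unnormalised signals show where the scaling enters. For CAV1, OXTR, SNAI2 and CD44 the median spot signal was larger in the grade 3 channel than in the grade 1 channel on all 4 arrays. CD44 read 1121.5, 887, 915 and 1122.5 units in grade 3 and 696.5, 775.5, 900 and 977 units in grade 1, a raw log2 ratio between 0.024 and 0.69. S100A4 followed the dye instead, with 87941 and 87183 units against 43450 and 46384 when grade 3 was in Cy5, and 45204 and 54379.5 units against 88434 and 102266 when grade 1 was. The median probe was also brighter in the grade 3 channel on all 4 arrays (402 against 215, 334.5 against 222.5, 324 against 289 and 354.5 against 292 units). After loess normalisation the spike-in controls, synthetic RNAs added before labelling, had a mean log2 ratio of grade 3 over grade 1 of -0.67. With the arrays scaled to them, 91.1% of tested probes were called higher, the median probe went from 0.0045 to 0.67, and SNAI2, OXTR and CAV1 went to 1.02, 0.95 and 0.92. Relative to that shifted median the order of the 5 genes was the same as before, since the scaling adds 1 constant per array. The spike-in mean ran from -0.78 to -0.45 over the arrays, and the fit treats this shared spread as separate for each probe. The share of 91.1% called therefore overstates the certainty.

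**Figure D4:**
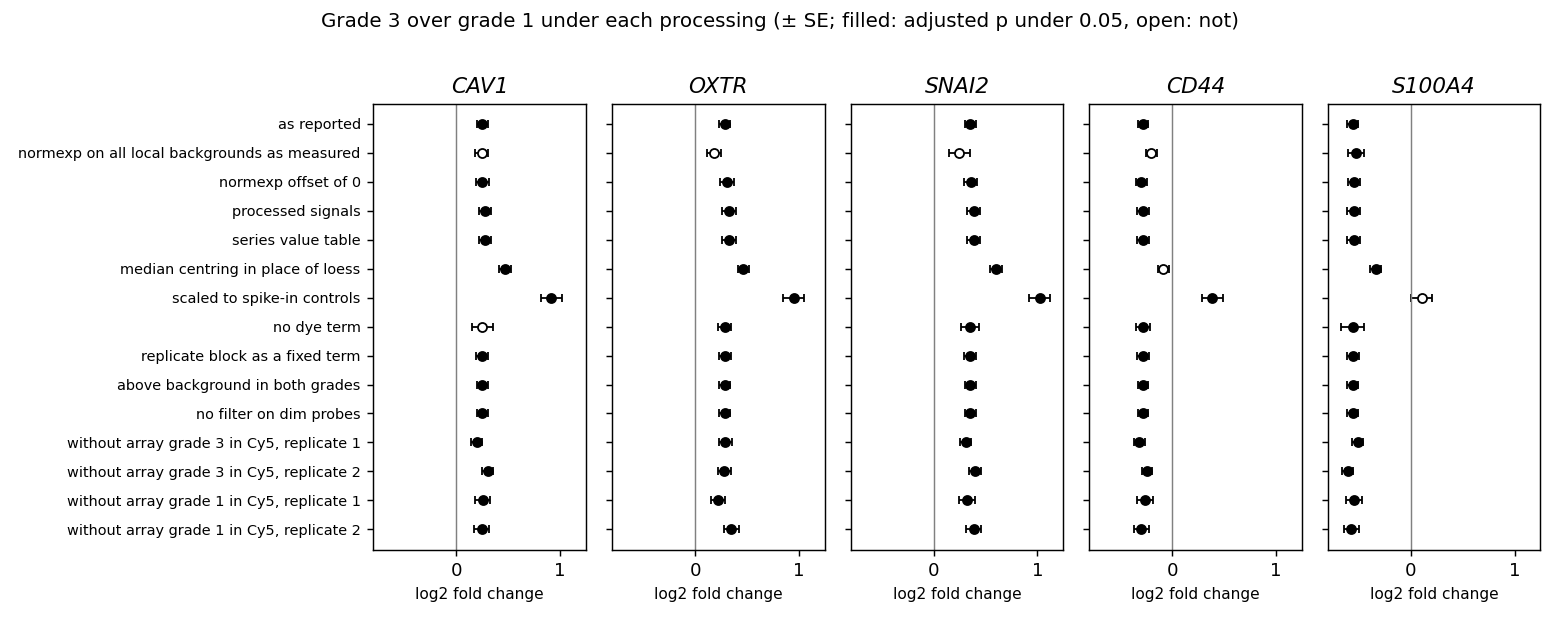
Log2 fold change of grade 3 over grade 1 ± SE (x axis) for each gene under each processing (y axis), filled where the adjusted p was under 0.05. The values of OXTR, SNAI2 and CAV1 stay above 0 in all rows, CD44 and S100A4 lie above 0 with spike-in scaling only, and 4 genes are open with local backgrounds as measured.

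The genes that belong with CAV1 and OXTR were few on this array. Of 29 listed basal and myoepithelial genes 5 were measured, and 3 of them, CAV1, CAV2 and OXTR, were higher and none lower in grade 3, against 24.1% higher and 46.0% lower among all 924 named genes. The list median was 0.25, against -0.091 for all named genes. The counts of the other lists below are to be read against the same shares. CAV2, the caveolin that forms a complex with CAV1, was higher by all 3 of its probes, with log2 fold changes of 0.27, 0.30 and 0.30 (limma adjusted p = 0.00237, 0.000488 and 0.000981), close to the 0.25 of CAV1. KIT, a receptor kinase, had -0.085 ± 0.059 (adjusted p = 0.24). In the caveola list of 11 genes, NOS3, the endothelial nitric oxide synthase that caveolin-1 binds, had 0.0058 ± 0.050 by its brightest probe (limma adjusted p = 0.928), while its other 3 probes gave -0.094, -0.53 and 0.16, so its probes disagreed.

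Genes of oxytocin signalling went both ways. Of 20 listed, 8 were tested, of which 4 rose, 3 fell and 1 did not pass, and the median was 0.12. GNAQ, the G protein subunit that couples the receptor to phospholipase C, had a log2 fold change of 0.79 ± 0.082 (limma adjusted p = 2.404e-05), and its close relative GNA11 had -0.44 ± 0.046 (adjusted p = 2.545e-05), or 0.23 with spike-in scaling. AVPR1A, a vasopressin receptor related to OXTR, was 1.91-fold lower. PTGS2, the inducible cyclooxygenase, was 2.46-fold lower. AVPR2 was 1.32-fold higher by its brighter probe and had -0.030 (limma adjusted p = 0.61) by the other. With local backgrounds as measured GNAQ, GNA11, AVPR1A and AVPR2 were not called (limma adjusted p = 0.0643, 0.0931, 0.0524 and 0.109).

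SNAI2 had little company among transcription factors of EMT. Of 14 listed, 3 were measured. SOX9, a factor of stem and progenitor cells that also drives cartilage formation, was 1.28-fold lower (log2 fold change -0.36 ± 0.046, limma adjusted p = 0.000103), not called with median centring (-0.11, adjusted p = 0.0719) and called higher with spike-in scaling (0.31). TCF4, an E protein, had 0.018 ± 0.047 (limma adjusted p = 0.763) by its brighter probe and 0.26 (adjusted p = 0.00157) by the other. SNAI2 was therefore the only measured factor of the list that was called higher by its brightest probe at the reported setting. TCF4 was called higher too with median centring and with spike-in scaling.

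Other mesenchymal genes were lower together with CD44 and S100A4. Of 31 listed mesenchymal and EMT effectors 10 were measured, of which 9 were lower, CD44 and S100A4 among them, and 1 higher, with a median of -0.67 (-0.0045 with spike-in scaling). Among all 924 named genes 46.0% were lower and 24.1% higher, with a median of -0.091. MMP3, a matrix protease, was 5.51-fold lower (2.83-fold and not called, limma adjusted p = 0.0708, with local backgrounds as measured, and a log2 fold change of -3.42 with the processed signals). COL1A1, a chain of type I collagen, was 2.24-fold lower and TIMP1, a protease inhibitor, 2.01-fold lower. Their other probes had smaller values, log2 fold changes of -0.40, -0.49 and -0.80 for COL1A1 and -0.95 for TIMP1. Of 29 listed genes of epithelial junctions 9 were measured, and 7 were higher and none lower, with a median of 0.42. They included the desmosomal cadherin DSG1 (1.85-fold higher), the tight junction protein cingulin, CGN (1.68-fold), and the scaffold TJP1 (1.58-fold). None of these 3 lost its call under any alternative run.

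The partners of CD44 and S100A4 differed among themselves. Of 22 listed hyaluronan and CD44 genes only CD44 and MMP9 were measured, and MMP9, a protease that CD44 can hold at the cell surface, was 1.89-fold lower by its brightest probe, with log2 fold changes of -0.80, -0.16 and -0.11 by its other 3. Of 23 listed S100 genes and S100A4 partners 6 were measured, of which 2 rose, 3 fell and 1 did not pass, and the median was -0.29 (0.38 with spike-in scaling). S100A8, a neutrophil and monocyte S100 protein, was 2.94-fold lower. MYH9, the non-muscle myosin heavy chain that S100A4 binds, was 1.45-fold higher by its brightest probe and 0.30 and 0.098 on the log2 scale by its others. ANXA2, an annexin that pairs with S100 proteins, was 1.43-fold higher.

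**Figure D5:**
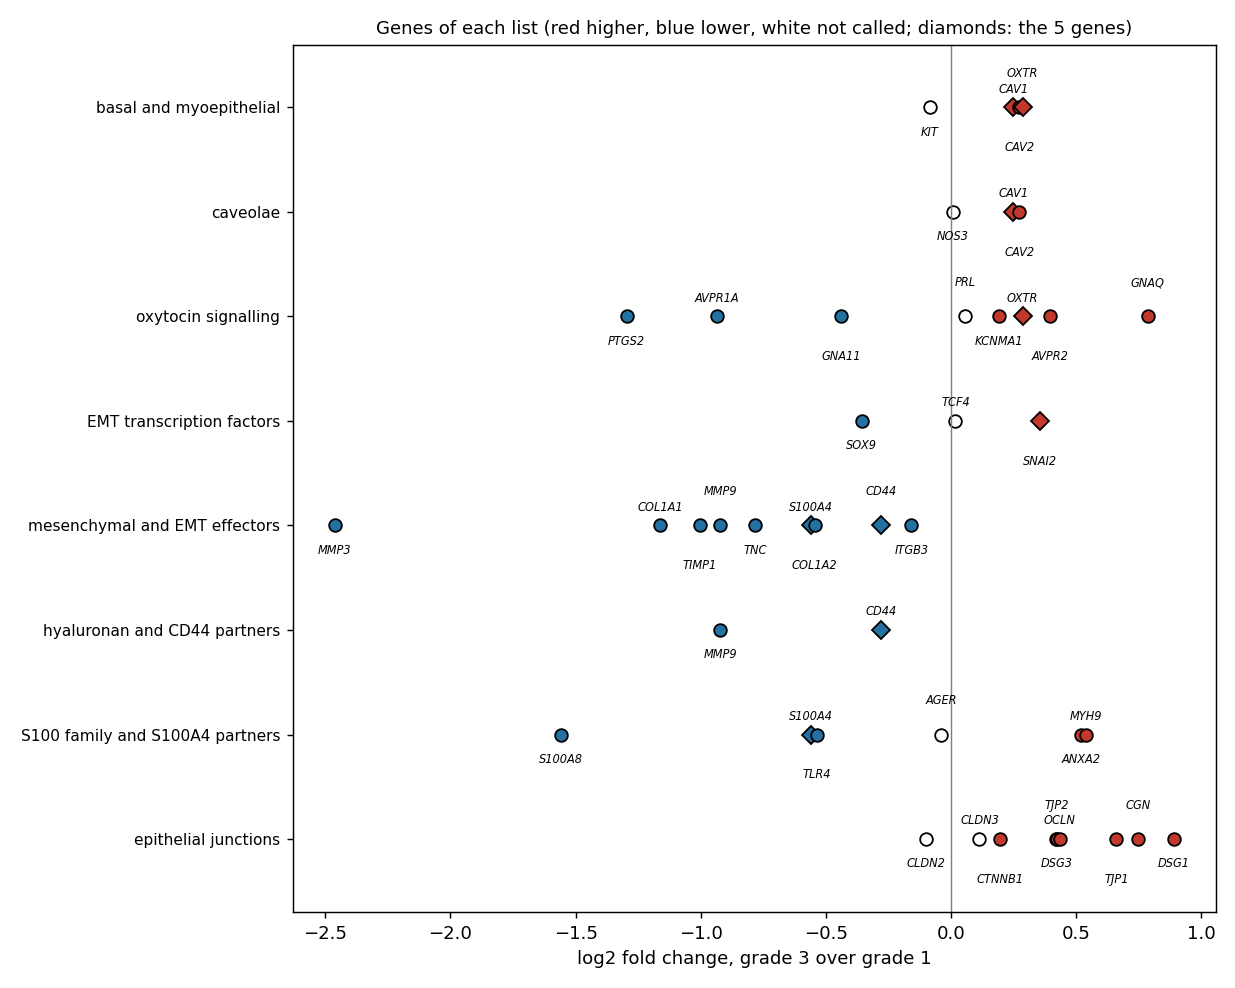
Log2 fold change, grade 3 over grade 1 (x axis), of the brightest probe of measured genes in 8 gene lists (y axis), coloured by call, with diamonds for CAV1, OXTR, SNAI2, CD44 and S100A4. The mesenchymal effectors shown lie below 0, and epithelial junction genes lie above 0 except CLDN2, which was not called. With spike-in scaling all points move up by 0.67, which carries CD44, S100A4, SOX9, GNA11, TLR4, COL1A2 and the uncalled genes above 0, and ITGB3 as well.

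Several cell types in a tumour express these genes, and their markers moved too. The counts below stand against 46.0% lower and 24.1% higher among all 924 named genes. All 5 measured of 16 leukocyte markers were lower in grade 3, with summed linear intensities of 9958 to 10780 in grade 3 and 20020 to 21220 in grade 1, so the ranges did not overlap. With local backgrounds as measured CD8A, CD4 and MS4A1 were not called (limma adjusted p = 0.1035, 0.256 and 0.0766), nor was CD4 with median centring (0.0668). Of 5 measured fibroblast markers 4 were lower, with sums of 307500 to 400000 against 479200 to 549200. Of these, COL1A2 had a mean log2 ratio of 0.13 with grade 3 in Cy5 and -1.22 with grade 1 in Cy5 and no call without a dye term (limma adjusted p = 0.149), DCN and BGN had none with median centring (0.0574 and 0.282), and BGN had none with local backgrounds as measured (0.0756). PDGFRB, the fibroblast marker that was not called, had a log2 fold change of 0.083 (limma adjusted p = 0.1625) by its brighter probe. Its other probe had -0.16 (adjusted p = 0.0127). Of 5 measured endothelial markers 4 were lower and 1 higher, with sums of 37330 to 44880 against 47280 to 55810. The higher one, SELE, was not called without a dye term (limma adjusted p = 0.136) or with local backgrounds as measured (0.215), and VWF was not called with median centring (0.283). Of 4 measured adipocyte markers 3 were lower, with sums of 7530 to 8032 against 8721 to 9069. LEP was not called without a dye term or with local backgrounds as measured (limma adjusted p = 0.157 and 0.0971), and PPARG was not called with median centring (0.174). The luminal list had 4 of 7 measured genes higher and 2 lower, with sums of 364200 to 474600 against 42920 to 99490, and the skeletal muscle list had 6 of 7 higher and 1 lower, with sums of 19800 to 23540 against 3521 to 4368. The lower muscle gene, DES, and TFF1, one of the lower luminal genes, were not called without a dye term (limma adjusted p = 0.0920 and 0.0518) or with local backgrounds as measured (0.574 and 0.1485). Leaving out 1 array also ended calls: that of CD4 without replicate 2 with grade 1 in Cy5 (adjusted p = 0.0729, limma), of TFF1 without replicate 1 in that orientation (0.0693), of LEP without replicate 2 with grade 3 in Cy5 (0.0515), and of DES without any 1 of these 3 arrays (0.0561 to 0.236). With spike-in scaling the list medians turned from -0.34 to 0.32 for fibroblasts, from -0.53 to 0.14 for endothelium and from -0.26 to 0.41 for adipocytes, while that of leukocytes stayed below 0, at -0.27. Every measured marker of these 6 lists was well above background on all 4 arrays in both grades. A linear sum mostly follows its brightest genes. In grade 3 these were CSN2 and LALBA in the luminal list (mean log2 levels 18.27 and 16.41) and VWF in endothelium (15.16). In leukocytes they were CD86 (12.58) and CD163 (11.82). In adipocytes the brightest was CD36 (12.23), which was not called (log2 fold change 0.080, limma adjusted p = 0.161). The leukocyte, fibroblast, endothelial and adipocyte sums were all lower in grade 3, in the direction of CD44 and S100A4 and opposite to CAV1, OXTR and SNAI2. Their part in the levels of the 5 genes was not tested.

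The genes with the most similar array pattern were taken from the other 923 named genes by the Euclidean distance over the 4 log2 ratios, which include each probe's dye effect. Nearest to CAV1 were CA9, GDF9 and LOC403581 (distances 0.065, 0.092 and 0.12), and like CAV1 all 3 were below 0 on replicate 2 with grade 3 in Cy5. Nearest to OXTR were HMGB1, SRP54 and SLC5A1 (0.14, 0.14 and 0.18), and nearest to SNAI2 were FHIT, CCL28 and SLC35C1 (0.14, 0.14 and 0.15). Nearest to CD44 were PDE6G, VWF and PPARG (0.093, 0.10 and 0.13), of which VWF marks endothelium and PPARG adipocytes. Nearest to S100A4 were CA2, PTGER4 and OR13F1B (0.096, 0.17 and 0.17). With 4 arrays these distances describe a likeness of size and dye pattern only.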

How the data were processed

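The submitters' processing notes name Agilent Feature Extraction 10.7.3.1 as the software that read the 4 arrays. Per the file headers, median and local background signals are linear intensity values, processed signals are intensities that the software had background-subtracted and dye-normalized, and LogRatio is log10 of Cy5 over Cy3. The value table, as deposited, holds those log10 ratios within 4.99e-06, turned to grade 3 over grade 1, with a median of 0 on each array.

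Local backgrounds marked as outliers (151 to 2352 per array and channel) took the median background of that array and channel, normexp was run with an offset of 50, and loess was applied with control spots at weight 0 (R 4.3.3, limma 3.58.1). Mean signals were not used here. Marked spots (11 to 39 per array, none of the 5 genes') were left out. Tested probes had a value on all 4 arrays and, in one grade or both, a signal well above background on each array; the fit had a grade and a dye term (two-sided eBayes test with 2 residual and 7.46 prior degrees of freedom). The share of probes well above background ran from 80.7% to 84.5% over arrays and channels, and no spot was saturated. The number of arrays limits the precision. Levels are single-channel log2 intensities after Aquantile. Probes were named through RefSeq accessions in a table of UU_Cfam_GSD_1.0, which is not the array's build, so no coordinates are given. The brightest tested probe stood for a gene. Named genes are the 5 members, up to 3 called genes per direction of each of 14 lists, or all genes of a list with 5 or fewer measured, and 3 nearest genes per member. Other genes named in a figure follow from the lists. Some genes that this rule takes are not reported here or plotted by list, and the counts and medians include them. Members, lists and the background step were chosen with earlier results of these data known. Alternatives were the other background, offset, scaling, dye, replicate and filter settings and leaving out each array.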

Additional observations from a re-analysis of the deposited data

Results flagged for a closer look

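For 68 named genes the 4 log2 ratios of grade 3 over grade 1 were searched for an array far from the others and for a difference between the dye orientations. In TFF3, a luminal gene, 1 array, replicate 2 with grade 3 in Cy5, stood at 1.45 and the other 3 at 1.97, 1.97 and 2.03, a gap of 0.89 of the whole range, where chance marks about 1 in 20 groups.

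The dye effect, which is the test of the difference between orientations, passed an adjusted p of 0.05 (limma) in 23 of the 68 genes, against 19.8% of all tested probes. The 68 include genes picked for likeness to a member over ratios that hold the dye effect. The count of 23 can therefore not be compared directly with the share of all probes. CAV1 (-0.21) and S100A4 (0.24) were the 2 among the 5 genes. COL1A2 had a dye effect of 0.68 (adjusted p = 0.000645), SELE of 0.35 (0.0127), LEP of -0.23 (0.0339) and LOC403581 of -0.26 (0.0107), and in these 4 genes the mean ratios of the orientations had opposite signs. The grade calls of COL1A2, SELE and LEP were lost without a dye term. Positive dye effects, a higher ratio with grade 3 in Cy5, were those of CSN2 (0.59), MYH8 (0.41), MYH1 (0.39), PTGS2 (0.295), TJP1 (0.26), PTGER4 (0.26), MYH2 (0.21), CA2 (0.21) and MS4A1 (0.21). Negative ones were those of COL1A1 (-0.47), GDF9 (-0.21), CA9 (-0.20), MYH9 (-0.20), CD163 (-0.19), SLC35C1 (-0.18), CCL28 (-0.18) and ANXA2 (-0.17). TCF4 had 0.14 and 0.19 with grade 3 in Cy5 and -0.14 and -0.11 with grade 1 in Cy5, a dye effect of 0.14 ± 0.047 (SE, adjusted p = 0.0569). CD36, a fatty acid transporter of adipocytes and endothelium, had 0.20 and 0.22 against -0.064 and -0.035, a dye effect of 0.13 ± 0.046 (adjusted p = 0.0769). Signs that opposed each other on every array stood in 14.2% of all tested probes.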

How the results depend on the processing

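Under 14 alternatives CAV1 kept its direction and call in 12, OXTR, SNAI2 and S100A4 in 13 each and CD44 in 11. The processed signals and the deposited value table gave the same values for all 5 genes and are counted separately among the 14. With local backgrounds as measured only 1 of the 5 genes was called: CAV1 had 0.24 (limma adjusted p = 0.0507), OXTR 0.18, SNAI2 0.25 and CD44 -0.20. There 2330 probes were higher and 4418 lower, against 11019 and 10792, and 38 in place of 60 of the 71 listed genes measured were called. Median centring gave -0.084 for CD44, and LEP turned to 3.573e-05; 15615 probes were then higher and 8823 lower. Without a dye term CAV1 had 0.25 and no call. Spike-in scaling gave 32225 probes higher and 920 lower and turned CD44 to 0.39 and S100A4 to 0.11. It also turned SOX9 (0.31), GNA11 (0.23), TLR4 (0.13), PGR (0.095), TFF1 (0.48), CD8A (0.31), CD4 (0.49), VWF (0.37), KDR (0.054), EDNRB (0.14), COL1A2 (0.12), DCN (0.32), BGN (0.34), LEP (0.44), PPARG (0.38) and DES (0.53). Causes were not tested.

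Leaving out each array in turn gave 0.20 to 0.30 for CAV1, 0.22 to 0.35 for OXTR, 0.31 to 0.40 for SNAI2, -0.32 to -0.24 for CD44 and -0.61 to -0.51 for S100A4, all 5 called each time, with 9084 to 10966 probes higher, 8999 to 10796 lower and 57 to 59 listed genes called. The deviations of same-numbered arrays had a correlation of -0.091 over probes (2 pairs). With 2 arrays per orientation this value cannot show whether same-numbered arrays share an RNA extract. A replicate block as a fixed term left all 5 genes called, with SNAI2 at a limma adjusted p of 3.303e-05 and 10914 probes higher and 10633 lower. The mean of a gene's probes changes nothing for genes with 1 probe and was not run for the lists. Spot signals over local background were 13.9 to 32.6 for OXTR and 22.1 to 40.1 for CD44; whether this limits their calls was not tested.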

Other observations

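The levels of all 5 genes varied more over the 4 arrays in grade 3 than in grade 1. The SD was 0.18 against 0.085 for CAV1, 0.14 against 0.067 for OXTR, 0.15 against 0.086 for SNAI2, 0.12 against 0.059 for CD44 and 0.20 against 0.13 for S100A4. Among all tested probes 65.0% had the larger SD in grade 3, with a median SD of 0.11 against 0.086. The difference was not tested.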
